A study of Mus musculus with 15 samples.

Results

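The genes described here are 48 interferon-stimulated effector genes, the genes whose products carry out the antiviral and growth-limiting work of an interferon response. They were chosen by name from a list, in 9 roles, with earlier results of these data known. The shares of all tested genes set beside their counts are therefore descriptions. Each was found once among the 46603 gene IDs of the count files, of which 33059 had at least 1 count in some library, and all 48 could be tested. RNA was sequenced from mouse embryonic fibroblasts (MEFs) that lack beta-actin (KO, both copies of Actb knocked out), carry 1 intact copy (HET) or are wild type (WT), while they were turned into osteoblast-like cells by a chemical medium. The 5 groups of 3 libraries were KO and WT at day 4, and KO, HET and WT at day 14. HET cells were covered at day 14 alone. All groups shared the BALB/c strain, an origin in embryos of 10.5 days, plates coated with Matrigel, and an osteogenic medium with dexamethasone, a glucocorticoid, and forskolin, an activator of adenylyl cyclase. The labels name neither the embryos behind each genotype nor separate cultures for the replicates. A genotype therefore cannot be told apart from the embryos or culture behind it, and p-values measure only the spread between these libraries, which may be technical.

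Type I interferons bind the receptor made of Ifnar1 and Ifnar2, and the kinases bound to it switch on a complex of transcription factors that holds Stat2 and Irf9. The complex binds the interferon-stimulated response element (ISRE) in the promoters of its target genes. The products bind or degrade foreign RNA, tag proteins with the ubiquitin-like protein Isg15, block the entry or release of viruses, and sense stray nucleic acids. Fibroblasts keep many of these genes at a low basal level without infection, through small amounts of their own interferon.

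Levels are given as CPM, counts scaled by library size with TMM factors, in the order of the replicate numbers. Differences are log2 fold changes ± SE of the fit over all 15296 tested genes, and a member is called higher or lower where edgeR's quasi-likelihood test gave an adjusted p under 0.05. The SE was kept from falling below the spread of the fitted count model, a lower limit that the test does not use. An SE can therefore be wider than the p-value beside it implies. Libraries held 25665666 to 47486736 counts at day 4 and 19878449 to 24822803 counts at day 14, so day and depth moved together. Actb followed the labels, with 129.9 to 138.6 CPM in KO and 1164 to 1193 CPM in WT at day 4, and 43.0 to 46.5 CPM in KO, 1437 to 1642 CPM in HET and 2947 to 3067 CPM in WT at day 14. The second HET library stood apart from the first and the third, at 45.6 and 45.8 in a chi-square of counts divided by its degrees of freedom. The first and the third gave 2.81 between them. Some results that rest on the second HET library, though not all, are given without it too. The WT libraries of day 14 gave 4.73 to 17 by the same measure, with the first and the third farthest apart, and the other groups 2.15 to 2.90. Without the first or the third WT library of day 14, the members higher and lower than WT stayed at 35 and 4 in KO and at 46 and 1 in HET. Without the third, the members behind the 35 changed. Parp9 no longer passed as higher in KO (edgeR adjusted p = 0.0877) and Usp18 newly passed (edgeR adjusted p = 0.00994). Of 15 leukocyte and macrophage markers, 13 had under 1 CPM in HET and 12 in both KO and WT at day 14. Among them, Ptprc, Adgre1 and Tyrobp had at most 17, 5 and 1 counts in any group. Of the 15 markers, 4 could be tested. In KO against WT at day 14, 2 were higher and 1 lower, against 30.9% and 32.2% of all tested genes. In HET against WT, 1 was higher and 1 lower, against 28.3% and 29.9%. The summed level of the list was 141 to 177 CPM in HET, 119 to 126 CPM in KO and 37.2 to 39.8 CPM in WT at day 14, and most of it was the monocyte co-receptor gene Cd14, with means of 146, 81.6 and 29.0 CPM in the same order. Cd68, a lysosomal protein of macrophages that other cells make too, had 35.8 to 39.0 CPM in KO at day 14. It had 7.04 to 7.17 CPM in HET and 5.89 to 6.49 CPM in WT at day 14. Cd68 was thus higher in KO than in WT, as most members were. Unlike most members, it was highest in KO and not in HET. At day 4 the list's sum was 84.2 to 87.8 CPM in KO and 79.5 to 84.0 CPM in WT. The share of counts from mitochondrial genes was 0.836% to 0.845% in KO and 0.415% to 0.421% in WT at day 4, and 1.08% to 1.12% in KO, 0.729% to 0.851% in HET and 0.484% to 0.542% in WT at day 14. Of the osteoblast markers, Bglap, Dmp1, Ibsp and Sp7 had at most 25 counts in any group, so these markers were near 0 in all 5 groups. The sum of 10 osteoblast genes was 7387 to 7495 CPM in KO and 5047 to 5121 CPM in WT at day 4, and at day 14 it was 4084 to 4209 CPM in KO, 5342 to 5748 CPM in HET and 3933 to 4081 CPM in WT. Of these genes the collagen gene Col1a2 averaged 489.5 CPM in HET and at most 2.61 CPM in any other group, and the alkaline phosphatase gene Alpl averaged 32.0 CPM in KO, 8.29 CPM in HET and 127.7 CPM in WT at day 14. The sum of the fibroblast genes was 3904 to 3909 CPM in KO and 2586 to 2602 CPM in WT at day 4, the reverse of the order in most members. At day 14 it was 3168 to 3249 CPM in KO, 3631 to 3744 CPM in HET and 2034 to 2170 CPM in WT, the same order as in most members. Endothelial genes summed to 1.35 to 15.02 CPM and epithelial genes to 0.137 to 10.5 CPM over all groups. The part of any of these lists, of mitochondrial counts and of depth in the members' differences was not tested. In bulk RNA, fewer cells that express a gene and less RNA per cell cannot be told apart.

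Across the 5 groups the members were lowest in KO cells of day 4 and highest in HET cells of day 14. The mean was highest in HET for 42 of 48 members, against 19.5% of all tested genes, and lowest in KO at day 4 for 36, against 17.8% of all tested genes. Their summed level at day 4 was 1072 to 1075 CPM in KO and 1840 to 1854 CPM in WT. At day 14 the sum was 3379 to 3414 CPM in KO, 7149 to 7776 CPM in HET and 2397 to 2538 CPM in WT, with no overlap between any groups. The median member averaged 1.498 CPM in KO and 9.89 CPM in WT at day 4, and at day 14 it averaged 43.5 CPM in KO, 110.1 CPM in HET and 22.5 CPM in WT. Set against all tested genes per kilobase of exon, the median member stood at the 20.5th percentile in KO and the 35.8th in WT at day 4. At day 14 it stood at the 64.5th percentile in KO, the 82.99th in HET and the 55.0th in WT. In KO cells of day 4, 22 members averaged under 1 CPM and 3 of these, Cmpk2, Ddx60 and Mx1, had no count at all. In WT cells of day 4 there were 8 members under 1 CPM and at day 14 there were 1 in KO, 0 in HET and 3 in WT. In 28 members, no neighbouring groups in the order of the means overlapped, against 9.88% of all tested genes.

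**Figure D1:**
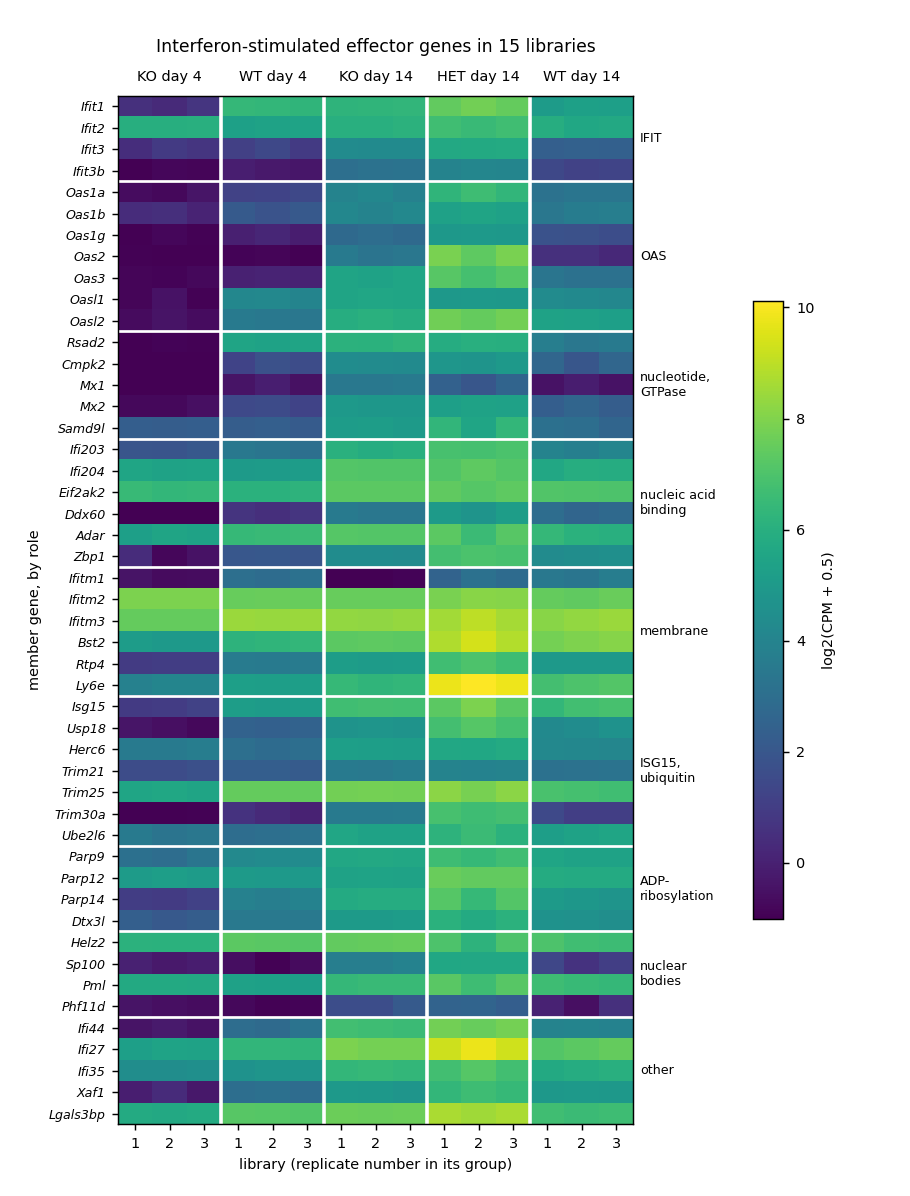
Level of each of the 48 members in each of the 15 libraries, as log2(CPM + 0.5) by colour, with members in rows by role and libraries in columns by group. The KO columns of day 4 are the darkest, with 22 members averaging under 1 CPM, and the HET columns hold the highest mean of 42 members.

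The basal level was uneven. Shares of the members' summed CPM are not corrected for gene length. The membrane proteins Ifitm2 and Ifitm3 made up 22.5% and 16.6% of the members' summed CPM in KO at day 4, and 10.1% and 18.6% in WT. Per kilobase they stood at the 99.6th and 99.3rd percentile of tested genes in KO at day 4, while the OAS gene Oas2 stood at percentile 1.51. In HET cells the largest shares of the sum went to Ly6e with 12.98%, Ifi27 with 9.56% and Bst2 with 7.10%.

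The promoter windows of these genes were read for the ISRE. The members were listed as interferon-stimulated genes, so a share above that of all genes follows in part from the choice. RefSeq start sites on GRCm38.p6 matched 36 of the 48 members, with 42 windows of 250 bases before to 50 bases after the start. The ISRE core, searched on both strands as GAAA, any 2 bases and GAAA, was in a window of 16 of the 36 members (44.4%), against 3.99% of all 27025 genes in the table and 3.44% of all 32851 windows. The GAS core, known from promoters that answer to interferon gamma and searched as TTCNNNGAA, was in 7 members (19.4%), against 9.55% of genes and 8.30% of windows, and 2 of 28 ISRE matches overlapped a GAS match. Members with an ISRE core had a median log2 change of 6.21 in KO at day 14 against day 4 and those without had 2.17 (16 and 20 members). In KO against WT at day 4 these medians were -3.10 and -1.14, and in HET against WT at day 14 they were 2.39 and 1.49. They were close together in KO against WT at day 14, at 0.90 and 0.82, and in WT over time, at 1.30 and 1.03. These splits are descriptions and were not tested, and they count the near-copies Ifit3 and Ifit3b, and Oas1a and Oas1g, as separate members. Of members with large changes, Cmpk2, Sp100, Oasl1 and Trim25 had a window without an ISRE core, and Mx1, Oas2 and Ly6e had no window. Eif2ak2 and Ifitm2, higher in KO than in WT at day 4, had an ISRE core and are not shown. The stretches below show 50 bases around a match in some of the 16 members with an ISRE core. Among them are the near-copies Ifit3 and Ifit3b and Oas1a and Oas1g, and Bst2, which went against the rest in KO at day 14. They read 5′ to 3′ along the gene's strand, with the ISRE core or its reverse complement in capitals.
Isg15 (chr4:156200855-156200904, minus strand): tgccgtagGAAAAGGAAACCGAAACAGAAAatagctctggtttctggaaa
Ifit1 (chr19:34640784-34640833, plus strand): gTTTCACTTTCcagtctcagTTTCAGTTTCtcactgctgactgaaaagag
Ifit3 (chr19:34583387-34583436, plus strand): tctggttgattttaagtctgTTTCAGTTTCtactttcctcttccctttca
Ifit3b (chr19:34607783-34607832, plus strand): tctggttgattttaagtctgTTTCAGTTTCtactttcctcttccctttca
Rsad2 (chr12:26456543-26456592, minus strand): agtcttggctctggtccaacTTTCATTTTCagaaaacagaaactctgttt
Oas1a (chr5:120907526-120907575, minus strand): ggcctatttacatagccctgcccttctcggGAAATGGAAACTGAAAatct
Oas1g (chr5:120887614-120887663, minus strand): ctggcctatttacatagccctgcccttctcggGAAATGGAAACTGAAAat
Oas3 (chr5:120777705-120777754, minus strand): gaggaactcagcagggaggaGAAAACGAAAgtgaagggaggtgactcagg
Trim30a (chr7:104465200-104465249, minus strand): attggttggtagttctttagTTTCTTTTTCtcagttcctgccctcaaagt
Bst2 (chr8:71537567-71537616, minus strand): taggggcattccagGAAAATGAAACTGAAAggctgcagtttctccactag
In Isg15, Oas1a, Oas1g and Bst2 neighbouring matches run into each other, so the capitals form 1 longer run. The stretches of Ifit3 and Ifit3b are the same over all 50 bases, and those of Oas1a and Oas1g share a run of 48 bases. The copies are also alike in their exons: 51.2% of the 50-base words of Ifit3 and 57.6% of those of Oas1a occur in another gene, so counts of these pairs are uncertain wherever reads were shared.

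At day 4, KO cells held most members below WT cells. Of the 48 members, 36 were lower in KO and 10 higher, while Oas2 and Samd9l did not pass, against 33.8% of all tested genes lower and 35.7% higher (edgeR, adjusted by Benjamini-Hochberg over all of them). The difference was 2-fold or more in 31 of the lower members, which 11.9% of all tested genes reached. The median log2 difference was -1.49, or -1.69 with genes of 3 counts or fewer in KO set at their ratio or bound, and 0.03 over all tested genes. By role, 6 of 7 OAS genes, 4 of 5 nucleotide and GTPase effectors and all 5 genes without a shared role were lower, while 3 of 4 genes of nuclear bodies and transcription were higher.

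At day 14 the order of KO and WT was turned round for 27 members, which were lower in KO at day 4 and higher at day 14, a pattern of 10.9% of all tested genes. Of the 48 members, 35 were higher in KO than in WT and 4 lower, with 9 that did not pass, against 30.9% of all tested genes higher and 32.2% lower. The median log2 difference was 0.73, against -0.02 over all tested genes, and 19 members were higher by 2-fold or more, as were 9.56% of all tested genes. All 4 IFIT genes, all 7 OAS genes and all 5 nucleotide and GTPase effectors were higher in KO. No membrane gene passed as higher: Ifitm1, Bst2 and Ly6e were lower and Ifitm2, Ifitm3 and Rtp4 did not pass. Rtp4 (edgeR adjusted p = 0.083) passed as higher without the second HET library and under the exon length correction, with an edgeR adjusted p of 0.0159 and 0.000621. Usp18 (edgeR adjusted p = 0.0526) passed as higher in 10 of the other settings, among them DESeq2 (adjusted p = 0.0465) and no filter (edgeR adjusted p = 0.00572). The call for Parp9, among the 27 members above, was lost in 4 of the other settings. These were total-count scaling and leaving out the second or the third WT library or the second KO library of day 14.

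HET cells of day 14 stood above WT cells in nearly every member. In HET, 46 of the 48 were higher than in WT, Ifitm1 was lower and Helz2 did not pass, against 28.3% of all tested genes higher and 29.9% lower. Without the second HET library 47 were higher and 1 lower. The median log2 difference was 2.03, against -0.02 over all tested genes, and 36 members were higher by 2-fold or more, against 7.33% of all tested genes.

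Against HET, KO cells of day 14 had 41 members lower and 4 higher, while 3 did not pass, against 30.1% of all tested genes lower and 29.4% higher. With any 1 library left out, 40 to 41 were lower and 3 to 4 higher. The median log2 difference was -0.98, against -0.01 over all tested genes, and 23 members were lower by 2-fold or more, as were 9.01% of all tested genes. All 7 genes of the Isg15 and ubiquitin role and all 6 membrane genes were lower in KO than in HET. In 40 members every HET library lay above every KO and WT library of day 14, against 14.9% of all tested genes. In 30 members every HET library lay above every KO library and every KO library above every WT library, an order found in 4.93% of all tested genes. The 3 comparisons at day 14 share their libraries, so their counts are not independent.

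**Figure D2:**
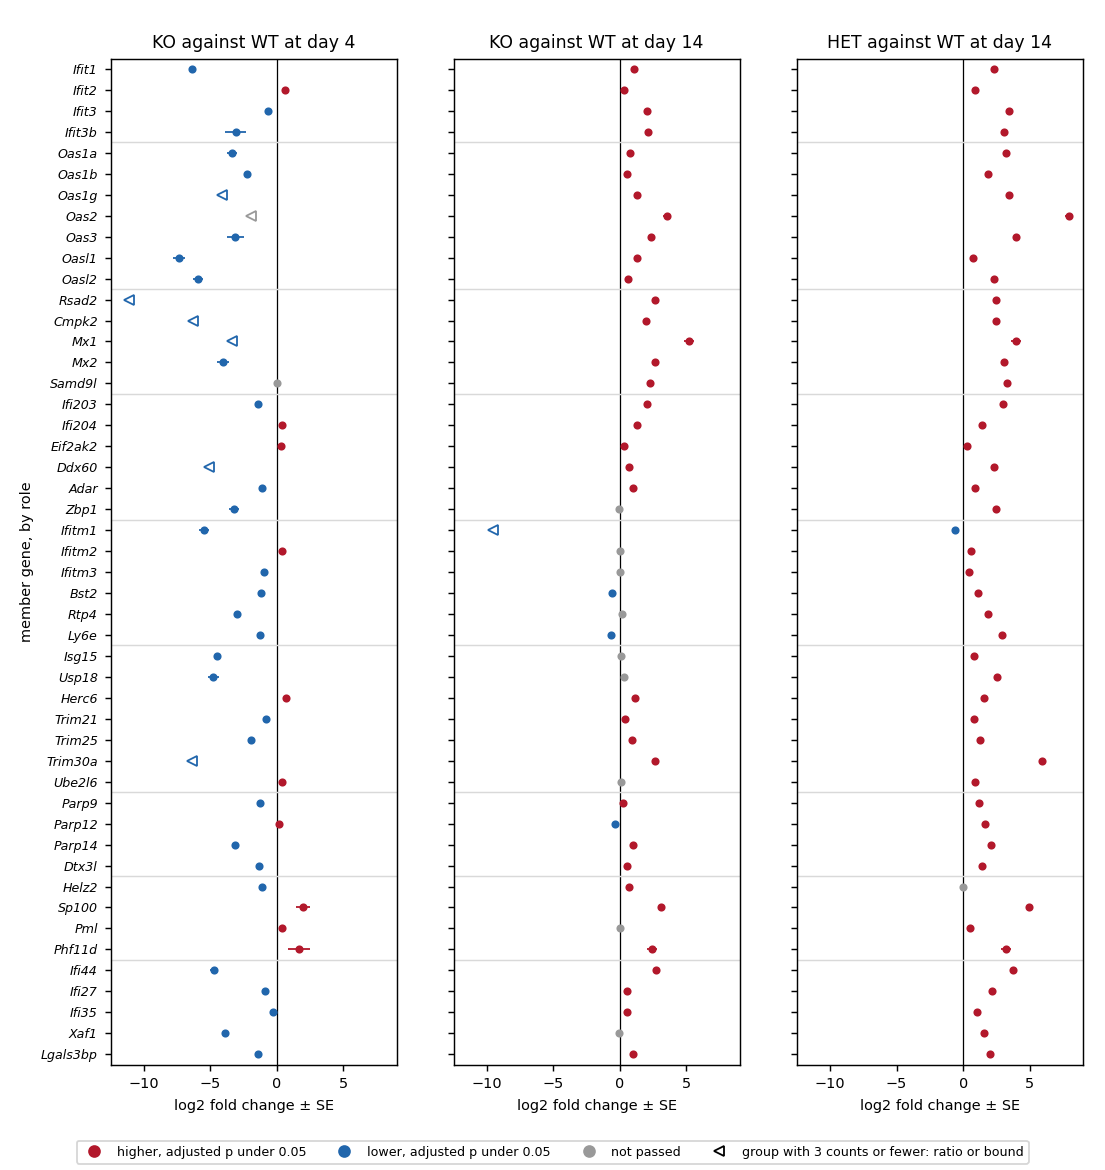
Log2 fold change ± SE of each member in KO against WT at day 4, KO against WT at day 14 and HET against WT at day 14, with members in rows by role. Red points are higher and blue points lower at an edgeR adjusted p under 0.05, grey points did not pass, and open triangles give the ratio or the bound where a group had 3 counts or fewer. Most points lie left of 0 at day 4 (36 lower) and right of 0 at day 14 (35 higher in KO, 46 in HET).

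The IFIT proteins bind foreign RNA and hinder its translation. Ifit1 had 0.966, 0.767 and 1.16 CPM in KO cells of day 4, against 83.4, 80.8 and 75.9 CPM in WT cells. At day 14 Ifit1 had 74.98, 77.4 and 78.7 CPM in KO, 174, 212 and 180.4 CPM in HET and 34.2, 39.7 and 37.9 CPM in WT cells. Every KO library of day 4 was far below all others, KO and WT of day 14 did not overlap, and HET was highest. Ifit1 was lower in KO at day 4 (log2 change -6.36 ± 0.17, edgeR adjusted p = 8.33e-16) and higher at day 14 (log2 change 1.05 ± 0.10, edgeR adjusted p = 3.19e-08). HET exceeded WT by 2.34 ± 0.10 in log2 (edgeR adjusted p = 3.85e-12). Its neighbour Ifit2 behaved otherwise. Ifit2 had 61.5, 62.7 and 64.3 CPM in KO cells of day 4, against 39.2, 42.3 and 42.5 CPM in WT cells. At day 14 Ifit2 had 63.0, 64.8 and 70.3 CPM in KO, 103, 91.6 and 105 CPM in HET and 59.9, 48.9 and 52.1 CPM in WT cells. Its groups stayed within a narrower range, with KO above WT at both days, by log2 changes of 0.61 ± 0.10 at day 4 and 0.30 ± 0.10 at day 14 (edgeR adjusted p = 3e-06 and 0.00305). Ifit3 averaged 1.14 CPM in KO and 1.72 CPM in WT at day 4, and at day 14 it averaged 19.5 CPM in KO, 53.4 CPM in HET and 4.82 CPM in WT. Ifit3b, its near-copy, averaged 0.0396, 0.363, 8.41, 16 and 1.94 CPM in the same groups. The 4 genes lie side by side on chromosome 19 within 99.3 kb.

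The OAS enzymes bind double-stranded RNA and make the 2′-5′ oligoadenylates that switch on RNase L. Oas2 (ENSMUSG00000032690, chromosome 5, 120730333 to 120749853, minus strand of GRCm38) had the largest fitted difference of HET against WT among the members. Oas2 had 0.0302, 0 and 0 CPM in KO cells of day 4, against 0.0457, 0.0519 and 0 CPM in WT cells. At day 14 Oas2 had 11.1, 9.10 and 9.96 CPM in KO, 234, 165 and 237 CPM in HET and 0.934, 0.974 and 0.701 CPM in WT cells. It was all but absent at day 4, with 1 count in KO and 4 in WT, and at day 14 the 3 genotypes stood far apart without overlap. HET differed from WT by 7.92 ± 0.26 in log2 (edgeR adjusted p = 3.63e-14). KO exceeded WT by 3.53 ± 0.27 and differed from HET by -4.39 ± 0.13 in log2 (edgeR adjusted p = 1.83e-09 and 6e-13). Oas3 had 0.0604, 0.0320 and 0.0825 CPM in KO cells of day 4, against 0.526, 0.571 and 0.548 CPM in WT cells. At day 14 Oas3 had 43.7, 41.2 and 45.8 CPM in KO, 150.5, 112 and 146 CPM in HET and 9.57, 8.40 and 8.41 CPM in WT cells. HET was again highest and KO of day 4 lowest, and from day 4 to day 14 WT gained 3.99 ± 0.22 in log2 (edgeR adjusted p = 8.05e-12). KO gained 9.41 ± 0.60 in log2 (edgeR adjusted p = 5.39e-15). Oasl2 had 0.121, 0.256 and 0.138 CPM in KO cells of day 4, against 11.2, 10.4 and 10.0 CPM in WT cells. At day 14 Oasl2 had 60.6, 65.8 and 59.6 CPM in KO, 207, 181 and 212 CPM in HET and 41.3, 40.3 and 38.3 CPM in WT cells. Its libraries kept the order HET, KO, WT at day 14 and WT above KO at day 4. Oasl1 had 0.0604, 0.224 and 0.0275 CPM in KO cells of day 4, against 17.2, 17.8 and 15.5 CPM in WT cells. At day 14 Oasl1 had 44.5, 47.1 and 45.8 CPM in KO, 30.0, 31.4 and 29.9 CPM in HET and 19.9, 18.6 and 17.1 CPM in WT cells. Oasl1, which in mouse holds back the translation of Irf7, was thus 1 of the few members with KO above HET, by 0.59 ± 0.11 in log2 (edgeR adjusted p = 0.000104). Oas1a, Oas1b and Oas1g had means of 0.174, 0.773 and 0.0305 CPM in KO at day 4 and of 86.1, 41.8 and 30.2 CPM in HET at day 14. Oas1b is annotated as a polymorphic pseudogene, as its protein is cut short in many laboratory strains.

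Rsad2 (viperin, ENSMUSG00000020641, chromosome 12, 26442746 to 26456452, minus strand) turns CTP into a chain-terminating nucleotide, and its neighbour Cmpk2, a mitochondrial nucleotide kinase, supplies CTP. Rsad2 had 0, 0.0320 and 0.0275 CPM in KO cells of day 4, against 43.8, 42.3 and 45.0 CPM in WT cells. At day 14 Rsad2 had 70.3, 68.7 and 75.8 CPM in KO, 59.2, 63.6 and 61.5 CPM in HET and 12.9, 10.0 and 10.9 CPM in WT cells. The KO libraries of day 4 held 2 counts in all and the WT libraries 4610, while at day 14 KO was the highest group. KO was 2192-fold (95% counting interval 606 to 18100) lower than WT at day 4. In KO, day 14 exceeded day 4 by 3614-fold (95% counting interval 1000 to 29850), while in WT Rsad2 fell by 1.95 ± 0.11 on the log2 scale (edgeR adjusted p = 1.34e-11). KO was above HET by 0.22 ± 0.10 in log2 (edgeR adjusted p = 0.0234). The adjusted p of that edgeR difference was 0.0715 without the first HET library and 0.104 without the third KO library. Cmpk2 had 0, 0 and 0 CPM in KO cells of day 4, against 1.88, 2.86 and 2.53 CPM in WT cells. At day 14 Cmpk2 had 20.7, 19.8 and 19.5 CPM in KO, 28.1, 26.4 and 30.5 CPM in HET and 5.83, 3.39 and 5.93 CPM in WT cells. Cmpk2 was at least 79.9-fold lower in KO than in WT at day 4, with the KO group taken at 3 counts, the floor. In KO of day 14 it was at least 672-fold higher than at day 4. The dynamin-like GTPases Mx1 and Mx2 trap viral particles, and intact Mx1 is missing from most inbred strains. Mx1 had 0, 0 and 0 CPM in KO cells of day 4, against 0.252, 0.442 and 0.211 CPM in WT cells. At day 14 Mx1 had 10.4, 10.4 and 11.4 CPM in KO, 4.98, 3.47 and 5.499 CPM in HET and 0.233, 0.417 and 0.234 CPM in WT cells. It was low in WT at both days, and KO of day 14 lay above HET, which lay above WT. The differences at day 14 were 5.17 ± 0.38 in log2 (edgeR adjusted p = 2.25e-09) in KO against WT and 1.20 ± 0.20 in log2 (edgeR adjusted p = 0.000103) in KO against HET. Mx2, annotated as a polymorphic pseudogene, averaged 0.126 CPM in KO and 2.18 CPM in WT at day 4, and 30.1, 40.1 and 4.83 CPM in KO, HET and WT at day 14. Samd9l, which limits translation and growth, was level at day 4. Samd9l had 4.53, 4.35 and 4.57 CPM in KO cells of day 4, against 4.32, 4.65 and 4.13 CPM in WT cells. At day 14 Samd9l had 35.2, 35.9 and 33.0 CPM in KO, 78.6, 46.2 and 81.2 CPM in HET and 8.12, 7.51 and 5.66 CPM in WT cells. The groups overlapped at day 4 and stood apart at day 14, with the second HET library at 46.2 CPM and the other HET libraries near 80 CPM. KO exceeded WT at day 14 by 2.29 ± 0.18 in log2 (edgeR adjusted p = 2.87e-08).

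Among the genes that bind nucleic acid, Eif2ak2 (PKR), the kinase that stops translation when it binds double-stranded RNA, stood at the 76.0th percentile per kilobase in KO and the 69.9th in WT at day 4 and differed little between genotypes. Eif2ak2 had 88.3, 82.3 and 83.9 CPM in KO cells of day 4, against 67.1, 68.0 and 71.3 CPM in WT cells. At day 14 Eif2ak2 had 159, 159.6 and 156 CPM in KO, 168, 143 and 164 CPM in HET and 136, 131 and 128 CPM in WT cells. Both genotypes were higher at day 14 than at day 4, KO by 0.90 ± 0.09 and WT by 0.93 ± 0.09 in log2 (edgeR adjusted p = 2.71e-09 and 9.27e-10). KO was above WT at both days without overlap, by log2 changes of 0.30 ± 0.09 at day 4 and 0.27 ± 0.09 at day 14 (edgeR adjusted p = 0.000287 and 0.000991). KO and HET had means of 158 and 158 CPM, a difference of -0.00068 ± 0.09 in log2 (edgeR adjusted p = 0.995). Adar, which edits adenosine to inosine in double-stranded RNA, moved apart between the days. Adar had 38.5, 43.8 and 41.2 CPM in KO cells of day 4, against 87.5, 91.3 and 94.5 CPM in WT cells. At day 14 Adar had 143, 139.5 and 138 CPM in KO, 157, 93.4 and 149.9 CPM in HET and 84.1, 66.9 and 63.8 CPM in WT cells. KO was below WT at day 4 (log2 change -1.15 ± 0.14, edgeR adjusted p = 3.57e-06) and above WT at day 14 (log2 change 0.97 ± 0.14, edgeR adjusted p = 2.93e-05). The second HET library was 93.4 CPM, below the 2 others, and without it KO against HET was -0.13 (edgeR adjusted p = 0.147), against 0.07 ± 0.14 with it. Exons of Adar overlap the antisense gene Chrnb2 over 16.8% of their length, and the kit does not mark strand. Ddx60, a helicase gene, rose in step with the rest. Ddx60 had 0, 0 and 0 CPM in KO cells of day 4, against 1.10, 0.909 and 1.14 CPM in WT cells. At day 14 Ddx60 had 11.2, 10.2 and 10.1 CPM in KO, 32.5, 26.6 and 36.2 CPM in HET and 7.28, 5.66 and 6.40 CPM in WT cells. It had no count in KO at day 4, which was at least 34.9-fold lower than WT. In WT it rose over time by 2.63 ± 0.20 in log2 (edgeR adjusted p = 7.64e-09). Ifi204, a DNA-binding protein of the interferon-inducible p200 family, went against the rest at day 4. Ifi204 had 45.9, 42.1 and 42.6 CPM in KO cells of day 4, against 32.5, 33.7 and 34.8 CPM in WT cells. At day 14 Ifi204 had 141, 135 and 134 CPM in KO, 137, 165 and 139 CPM in HET and 50.5, 60.8 and 58.4 CPM in WT cells. KO was above WT at both days, by 0.37 ± 0.10 and 1.27 ± 0.09 (edgeR adjusted p = 0.000563 and 1.31e-09), and KO and HET overlapped. Of its 50-base words 20.02% occur in another gene. Its relative Ifi203 averaged 3.40 and 9.21 CPM in KO and WT at day 4. Zbp1, the sensor of Z-form nucleic acid that can start necroptosis, averaged 20.4 ± 0.581 CPM in KO, 117 ± 6.18 CPM in HET and 21.2 ± 1.25 CPM in WT at day 14 (SD, n = 3), so that HET alone stood apart.

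Among the membrane proteins, none passed as higher in KO than in WT at day 14. The Ifitm proteins hinder viral entry, and their genes lie within 55.9 kb on chromosome 7. Ifitm3 had 178, 179 and 177 CPM in KO cells of day 4, against 346, 338 and 346 CPM in WT cells. At day 14 Ifitm3 had 314, 309 and 321 CPM in KO, 374, 510.1 and 389 CPM in HET and 284, 312 and 350.2 CPM in WT cells. KO was below WT at day 4 (log2 change -0.95 ± 0.09, edgeR adjusted p = 2.11e-07), and at day 14 KO and WT overlapped (log2 change -0.0026 ± 0.09, edgeR adjusted p = 0.983). Ifitm2 had 242, 242 and 240.2 CPM in KO cells of day 4, against 184, 190.2 and 185 CPM in WT cells. At day 14 Ifitm2 had 184, 182 and 184 CPM in KO, 237, 282 and 273 CPM in HET and 181, 166 and 189.5 CPM in WT cells. Here KO was the higher group at day 4 (log2 change 0.38 ± 0.09, edgeR adjusted p = 4.73e-05), a call that was lost under a correction for exon length, and 48.5% of its 50-base words occur in another gene. Ifitm1 (ENSMUSG00000025491, chromosome 7, 140967221 to 140969825, plus strand) was near 0 in KO cells at both days. Ifitm1 had 0.241, 0.128 and 0.138 CPM in KO cells of day 4, against 7.73, 7.12 and 8.38 CPM in WT cells. At day 14 Ifitm1 had 0, 0 and 0.0395 CPM in KO, 5.37, 8.36 and 6.85 CPM in HET and 10.3, 9.51 and 12.4 CPM in WT cells. All KO libraries lay below all others at their day, with 17 counts over the KO group at day 4 and 1 at day 14. KO was 760.1-fold (95% counting interval 136 to 30070) lower than WT at day 14 and 482-fold (95% counting interval 86.1 to 19100) lower than HET. It was also the only member lower in HET than in WT, by -0.65 ± 0.17 in log2 (edgeR adjusted p = 0.00349). Bst2 (tetherin) holds budding virus at the cell surface. Bst2 had 35.0, 32.2 and 32.0 CPM in KO cells of day 4, against 72.2, 75.9 and 82.2 CPM in WT cells. At day 14 Bst2 had 160.4, 162 and 158 CPM in KO, 444, 676 and 458 CPM in HET and 218, 246 and 269.5 CPM in WT cells. KO was below WT at both days, by log2 changes of -1.21 ± 0.13 and -0.61 ± 0.12 (edgeR adjusted p = 4.5e-07 and 0.000516), while HET was highest. Ly6e, a lipid-anchored surface protein that can limit or aid viral entry, was the member with the largest share of the HET sum. Ly6e had 14.2, 16.2 and 15.9 CPM in KO cells of day 4, against 38.6, 37.0 and 36.5 CPM in WT cells. At day 14 Ly6e had 85.2, 77.5 and 80.7 CPM in KO, 876, 1104 and 904 CPM in HET and 111, 129.7 and 139.6 CPM in WT cells. The HET libraries stood far above all others, and KO was lowest at both days. HET exceeded WT by 2.92 ± 0.09 in log2 (edgeR adjusted p = 1.24e-12). KO was below WT at day 14 (log2 change -0.64 ± 0.09, edgeR adjusted p = 1.75e-05) and below HET (log2 change -3.57 ± 0.09, edgeR adjusted p = 1.13e-13). Rtp4, a protein that also aids the surface transport of receptors, averaged 35.0 ± 1.04 CPM in KO, 111 ± 15.5 CPM in HET and 31.1 ± 0.880 CPM in WT at day 14 (SD, n = 3).

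**Figure D3:**
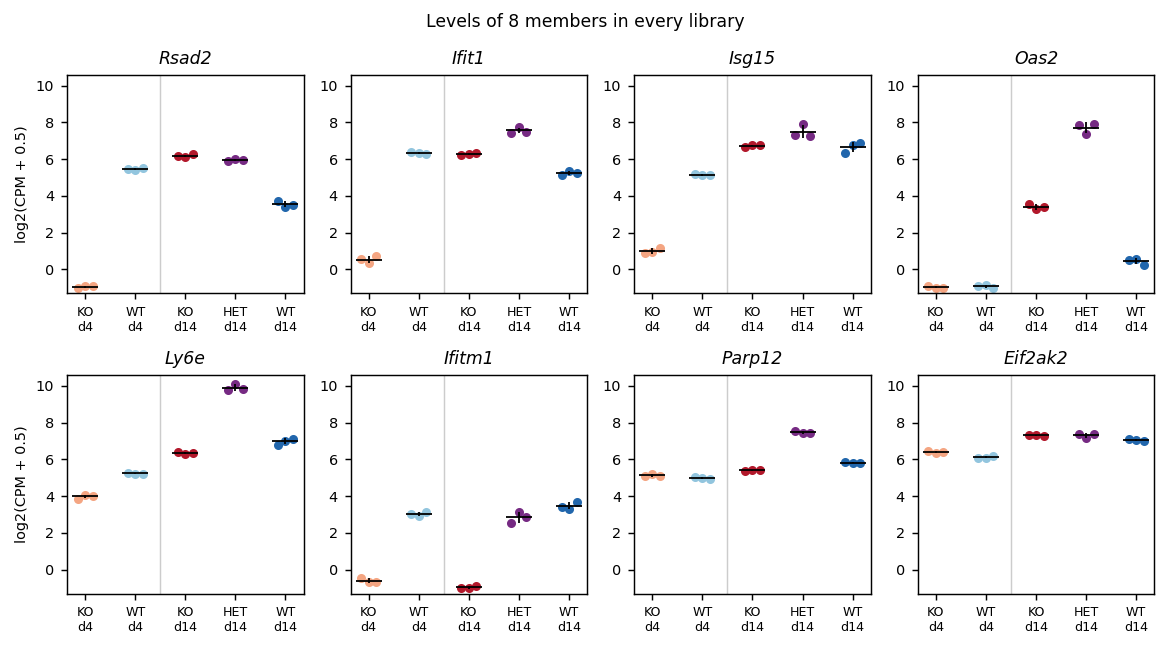
Levels of 8 members in every library as log2(CPM + 0.5), with points for libraries and bars for the mean ± SD of each group of 3, KO left of WT at day 4 and KO, HET and WT from left to right at day 14. Rsad2, Ifit1 and Isg15 are lowest in KO of day 4, Oas2 and Ly6e are highest in HET, Ifitm1 is near 0 CPM in KO at both days, and Eif2ak2 has the narrowest range of group means of the 8 on this log scale.

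Isg15 (ENSMUSG00000035692, chromosome 4, 156199424 to 156200818, minus strand) is joined to proteins by the enzymes Ube2l6 and, in mouse, Herc6, and taken off by Usp18, which also damps the interferon receptor. Isg15 had 1.36, 1.44 and 1.76 CPM in KO cells of day 4, against 36.3, 34.1 and 34.4 CPM in WT cells. At day 14 Isg15 had 102, 109 and 108 CPM in KO, 156, 238 and 153 CPM in HET and 81.1, 107 and 116 CPM in WT cells. KO of day 4 was far below all other groups, while KO and WT overlapped at day 14. KO differed from WT by -4.51 ± 0.23 in log2 (edgeR adjusted p = 1.83e-11) at day 4. The difference was 0.08 ± 0.15 in log2 (edgeR adjusted p = 0.671) at day 14. HET exceeded WT by 0.85 ± 0.14 in log2 (edgeR adjusted p = 0.000116). The genes of the joining enzymes, Ube2l6 and Herc6, went another way at day 4, while Usp18 was lower in KO as Isg15 was. Ube2l6 had 11.0, 9.30 and 9.96 CPM in KO cells of day 4, against 7.34, 7.71 and 8.596 CPM in WT cells. At day 14 Ube2l6 had 46.6, 41.9 and 41.5 CPM in KO, 73.1, 93.6 and 69.0 CPM in HET and 37.4, 41.9 and 46.4 CPM in WT cells. Herc6 had 11.2, 11.6 and 12.5 CPM in KO cells of day 4, against 7.80, 6.91 and 7.63 CPM in WT cells. Both were above WT in KO at day 4 without overlap, by 0.37 ± 0.13 in log2 (edgeR adjusted p = 0.0177) for Ube2l6. The Ube2l6 call was lost without the first or the second WT library of day 4, without the first KO library of day 4, and under the exon length correction. For Herc6 the difference was 0.66 ± 0.12 in log2 (edgeR adjusted p = 1.85e-06). At day 14 Herc6 had 38.0, 36.7 and 35.6 CPM in KO, 50.3, 48.4 and 55.3 CPM in HET and 18.0, 17.1 and 16.5 CPM in WT cells. Herc6 thus kept KO above WT at day 14, by 1.09 ± 0.11 in log2 (edgeR adjusted p = 4.34e-09). Usp18 averaged 0.182 and 5.01 CPM in KO and WT at day 4 and 25.9, 122 and 21.3 CPM in KO, HET and WT at day 14. Trim25 is the ubiquitin ligase known for its work with the RNA sensor RIG-I. Trim25 had 45.5, 48.6 and 44.1 CPM in KO cells of day 4, against 179, 178 and 177 CPM in WT cells. At day 14 Trim25 had 216, 218 and 216 CPM in KO, 291, 227 and 286 CPM in HET and 122, 115 and 104 CPM in WT cells. WT and KO changed places, with KO lower at day 4 (log2 change -1.95 ± 0.09, edgeR adjusted p = 7.06e-12) and higher at day 14 (log2 change 0.93 ± 0.09, edgeR adjusted p = 7.92e-08). Trim30a, a mouse ligase that restrains inflammatory signalling, was nearly absent from KO at day 4. Trim30a had 0, 0 and 0.0275 CPM in KO cells of day 4, against 1.03, 0.753 and 0.548 CPM in WT cells. At day 14 Trim30a had 11.2, 11.6 and 11.7 CPM in KO, 115, 101 and 111 CPM in HET and 2.24, 1.58 and 1.59 CPM in WT cells. HET was far above KO, and KO above WT. The HET excess over WT was 5.92 ± 0.17 in log2 (edgeR adjusted p = 3.14e-14), and KO was 82.7-fold (95% counting interval 14.5 to 3305) lower than WT at day 4. Trim21, the cytosolic antibody receptor, averaged 2.56 and 4.38 CPM in KO and WT at day 4 and 11.3, 14.99 and 8.65 CPM in KO, HET and WT at day 14.

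The enzymes of ADP-ribosylation attach ADP-ribose to proteins or, as Parp9 does, work in a pair with the ubiquitin ligase Dtx3l. Parp12 had 33.8, 36.8 and 33.6 CPM in KO cells of day 4, against 32.7, 31.4 and 30.5 CPM in WT cells. At day 14 Parp12 had 41.1, 42.5 and 42.1 CPM in KO, 187, 171 and 172 CPM in HET and 56.9, 55.4 and 54.7 CPM in WT cells. Parp12 reversed against most members, with KO slightly above WT at day 4 (log2 change 0.14 ± 0.10, edgeR adjusted p = 0.0405) and below WT at day 14 (log2 change -0.41 ± 0.10, edgeR adjusted p = 1.3e-05). The day 4 call was lost in 13 of the other settings tried, among them DESeq2 and leaving out any of the second or the third WT library of either day, the first or second KO library of day 4, any KO library of day 14 or the third HET library. HET exceeded WT by 1.67 ± 0.09 in log2 (edgeR adjusted p = 1.48e-12). Parp14 had 1.51, 1.41 and 1.71 CPM in KO cells of day 4, against 14.3, 12.8 and 14.9 CPM in WT cells. At day 14 Parp14 had 55.5, 58.4 and 57.5 CPM in KO, 143, 86.3 and 139 CPM in HET and 32.4, 28.5 and 26.2 CPM in WT cells. It kept to the common order, with the second HET library lowest of the HET group at 86.3 CPM. KO differed from WT by -3.17 ± 0.22 at day 4 and by 0.98 ± 0.14 at day 14 on the log2 scale (edgeR adjusted p = 9.56e-10 and 2.87e-05). Parp9 and Dtx3l, head-to-head neighbours whose exons overlap, averaged 8.24 and 4.27 CPM in KO and 19.3 and 10.8 CPM in WT at day 4, and 98.01 and 63.9 CPM in HET at day 14.

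Pml and Sp100 build nuclear bodies that silence viral DNA, and Helz2 is a helicase that acts as a coactivator of nuclear receptors. Pml had 52.9, 53.0 and 51.7 CPM in KO cells of day 4, against 40.3, 39.5 and 37.4 CPM in WT cells. At day 14 Pml had 84.8, 91.7 and 92.02 CPM in KO, 152, 101 and 147 CPM in HET and 101, 89.7 and 84.2 CPM in WT cells. KO was above WT at day 4 (log2 change 0.43 ± 0.12, edgeR adjusted p = 0.00378), while at day 14 KO and WT overlapped and HET was highest. Sp100 had 0.513, 0.352 and 0.413 CPM in KO cells of day 4, against 0.160, 0.0260 and 0.126 CPM in WT cells. At day 14 Sp100 had 12.98, 12.9 and 14.8 CPM in KO, 48.1, 50.4 and 50.2 CPM in HET and 2.05, 1.07 and 1.59 CPM in WT cells. Sp100 was low at day 4, with 43 counts over the KO group and 11 over WT, and KO was above WT at both days. KO differed from WT by 1.99 ± 0.51 in log2 (edgeR adjusted p = 0.000992) at day 4. At day 14 the difference was 3.11 ± 0.19 in log2 (edgeR adjusted p = 4.56e-10) for KO against WT and 4.98 ± 0.19 in log2 (edgeR adjusted p = 1.48e-12) for HET against WT. Helz2 had 69.0, 67.1 and 68.8 CPM in KO cells of day 4, against 156, 151 and 144 CPM in WT cells. At day 14 Helz2 had 174, 177 and 186 CPM in KO, 128, 73.0 and 127 CPM in HET and 128, 104 and 98.7 CPM in WT cells. KO was the highest group at day 14, and the second HET library lay at 73.0 CPM, below every other library of that day. HET against WT was -0.01 ± 0.15 in log2 (edgeR adjusted p = 0.946), and without that library it was 0.20 (edgeR adjusted p = 0.0174). KO exceeded HET by 0.71 ± 0.15 in log2 (edgeR adjusted p = 0.000737), and by 0.49 in log2 without that library. Phf11d is a PHD finger gene. Phf11d had 0.241, 0.192 and 0.138 CPM in KO cells of day 4, against 0.0915, 0.0260 and 0.0421 CPM in WT cells. At day 14 Phf11d had 2.62, 2.56 and 3.91 CPM in KO, 5.37, 5.47 and 4.55 CPM in HET and 0.560, 0.186 and 0.935 CPM in WT cells. KO exceeded WT at both days, but the day 4 call (edgeR adjusted p = 0.0487) was lost in 11 of the other settings tried. These included leaving out the second or the third WT library or the first or second KO library of day 4, the first WT library, the first or second KO library, or the first or the third HET library of day 14.

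In the remaining role, Ifi27 is a small mitochondrial and nuclear envelope protein and Lgals3bp a secreted glycoprotein. Ifi27 had 38.5, 42.8 and 41.9 CPM in KO cells of day 4, against 78.4, 79.1 and 75.8 CPM in WT cells. At day 14 Ifi27 had 242, 220.3 and 223 CPM in KO, 607, 882 and 637 CPM in HET and 142, 160.5 and 180.3 CPM in WT cells. Lgals3bp had 54.9, 51.1 and 54.2 CPM in KO cells of day 4, against 148, 143 and 137 CPM in WT cells. Both were lower in KO at day 4 without overlap. At day 14 Lgals3bp had 196, 191 and 197 CPM in KO, 409.9, 371 and 417 CPM in HET and 105, 95 and 102 CPM in WT cells. HET was highest and KO above WT in both genes at day 14. Lgals3bp was lower in KO at day 4 (log2 change -1.42 ± 0.09, edgeR adjusted p = 3.8e-12) and higher at day 14 (log2 change 0.95 ± 0.09, edgeR adjusted p = 9.22e-10). Ifi44, a cytoplasmic protein linked to slower growth, averaged 0.282 and 7.65 CPM in KO and WT at day 4 and 101, 205 and 15.1 CPM in KO, HET and WT at day 14. Ifi35 averaged 22.0 and 26.6 CPM in KO and WT at day 4, and the pro-apoptotic Xaf1 averaged 0.527 and 7.63 CPM. The Ifi35 call of day 4, -0.27 ± 0.11 in log2 (edgeR adjusted p = 0.0354), was lost in 5 of the other settings: total-count scaling and leaving out the second or the third WT library or the first or second KO library of day 4. Exons of Ifi35 overlap an antisense gene over 16.8% of their length.

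Between the days, KO cells gained far more than WT cells. In KO, 45 of the 48 members were higher at day 14 than at day 4 and 2 lower (Ifitm1 and Ifitm2), against 30.8% of all tested genes higher and 30.1% lower, with Ifit2 not passing. The median log2 change was 4.15, against 0.00 over all tested genes, and 41 members were higher by 2-fold or more, against 10.5% of all tested genes. In WT, 38 were higher at day 14, 6 lower and 4 did not pass, against 39.7% of all tested genes higher and 34.9% lower, and 29 were higher by 2-fold or more, against 20.9%. The median log2 change was 1.13 in WT, against 0.08 over all tested genes. Of all genes called in WT over time, 53.2% were higher, and 63.2% when libraries were scaled by total counts alone. Of the members, 36 were higher at day 14 in both genotypes, a pattern of 16.3% of all tested genes, and Adar, Helz2, Ifit1, Lgals3bp, Rsad2 and Trim25 were lower in WT and higher in KO, a pattern of 8.73%. Of these, the WT call for Adar was lost without any 1 WT library other than the first of day 14, and that for Helz2 without the third WT library of day 14. With the exon length correction both WT changes had the other sign and did not pass, at 0.02 and 0.09 in log2.

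The change over time differed between the genotypes for most members. In the interaction of genotype and day, 39 of 48 changed more upwards in KO than in WT and 5 less, while 4 did not pass, against 30.7% of all tested genes upwards and 34.0% downwards. Without the first WT or the first KO library of day 14, 3 changed less. Of all genes called in the interaction, 47.4% were upwards, and 37.0% with total counts alone. The median log2 value was 2.69, against -0.08 over all tested genes, and it was 2-fold or more upwards in 33 members, against 13.8% of all tested genes. With the WT change taken as exact, the ratio of the KO change to the WT change was 13940-fold (95% counting interval 3858 to 115200) for Rsad2. It was at least 382-fold for Mx1 and at least 316-fold for Cmpk2, with groups of no count set at 3 counts. Intervals and bounds of this ratio leave out the counting error of the WT groups, where Mx1 had 33 counts at day 4 and 19 at day 14. On the other side were Ifitm1, with a ratio of 0.0597 (95% counting interval 0.00143 to 0.381), Parp12 with -0.55 ± 0.14 in log2 (edgeR adjusted p = 1.88e-05) and Pml with -0.46 ± 0.16 in log2 (edgeR adjusted p = 0.0207). The 2 others were Ifit2, at -0.30 ± 0.14 in log2 (edgeR adjusted p = 0.0216), and Ifitm2, at -0.34 ± 0.13 in log2 (edgeR adjusted p = 0.00283). The Pml call was lost without the third WT library of day 4, the first WT library of day 14 or the first KO library of day 14. The Ifit2 call was lost without the first WT library of either day, the third KO library of day 4, or the first or second KO library of day 14, and the Ifitm2 value was 0.01 with the exon length correction.

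**Figure D4:**
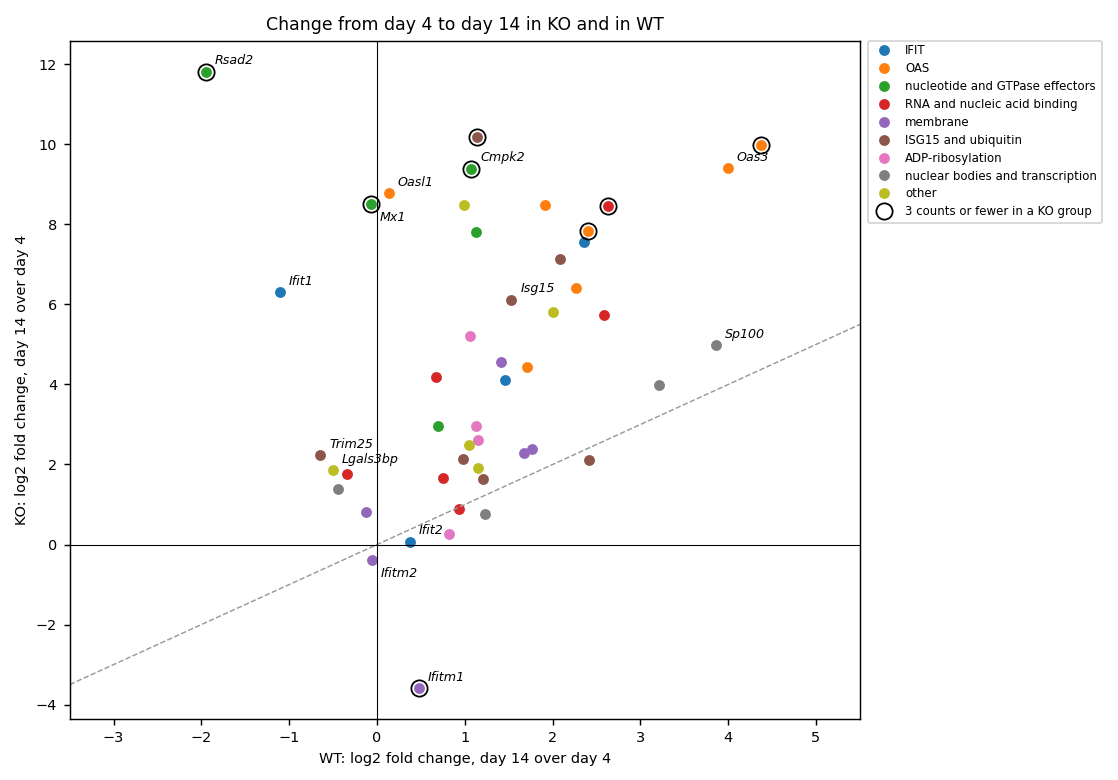
Log2 fold change from day 4 to day 14 in KO (vertical) against that in WT (horizontal) for each member, coloured by role, with the dashed line at equal change. Circled points had 3 counts or fewer in a KO group and are placed at the ratio or the lower bound. In KO 45 members changed upwards and Ifitm1 and Ifitm2 downwards, and Rsad2, Ifit1 and Trim25 lie left of 0 for WT.

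Of 35 listed genes of interferon signalling and sensing, 31 could be tested. At day 4, 11 of the 31 were higher and 14 lower in KO than in WT, where all tested genes had 35.7% and 33.8%, and with total-count scaling 9 were lower. At day 14, 12 were higher and 10 lower in KO than in WT, where all tested genes had 30.9% and 32.2%, so that these shares stood near those of all genes. In HET against WT 19 were higher and 6 lower, where all tested genes had 28.3% and 29.9%. Irf7, the factor that amplifies interferon production, had 0.815, 1.15 and 0.715 CPM in KO and 7.27, 6.47 and 7.12 CPM in WT at day 4. At day 14 Irf7 had 69.4, 69.2 and 70.7 CPM in KO, 139, 152 and 149 CPM in HET and 47.3, 51.8 and 56.3 CPM in WT, the order seen in most members. Stat2 did not follow the members at day 4: its mean was 142 CPM in KO, above the 76.9 CPM of WT (log2 change 0.88 ± 0.09, edgeR adjusted p = 2.03e-09). Irf9, its partner, was lower in KO at day 4, with 15.6 CPM against 54.1 CPM in WT (log2 change -1.80 ± 0.10, edgeR adjusted p = 1.67e-13). The interferon gene Ifnb1 had 0 counts in KO and 4 in WT at day 4, and 10 in KO, 3 in HET and 1 in WT at day 14. Ifna4 had 2 counts in KO, 11 in HET and 0 in WT at day 14 and Ifng at most 2 counts in any group, so these ligands were near the limit of detection.

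The deviation of the second HET library followed gene length. Over the 48 members, its log2 level relative to the 2 other HET libraries had r = -0.76 with the log2 exon length, and r = -0.63 over 9602 genes of at least 10 CPM. For the first and the third WT library of day 14 the members' r was 0.65 and -0.51. These are descriptions over genes that share a library. Short members were high in the second HET library, such as Bst2 with 903 bases of exon, and long ones low, such as Helz2 with 11529 bases. With a correction for exon length in each library, added after seeing the data, 46 members were higher in HET than in WT and 1 lower, as without it.

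**Figure D5:**
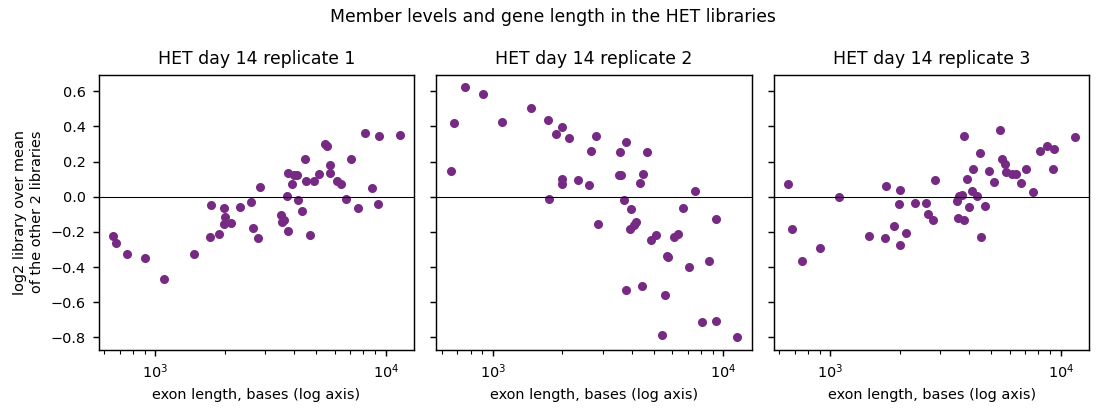
Log2 level of each member in each HET library relative to the mean of the other 2 HET libraries, against the exon length of the gene in bases on a log axis. Points slope down in the second library (r = -0.76) and up in the others. The mean that the first and the third library are set against includes the second, so their slopes are not independent of it.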

How the data were processed

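RNA was measured in 15 libraries of total RNA made with an unstranded kit (TruSeq RNA v2). The deposited values are raw counts per Ensembl gene ID, 1 file per library, and the authors' tools were TopHat2 2.1.0, HTSeq and DESeq2 on GRCm38.p4, per the submitters' processing notes. The gene models and strand option used by HTSeq are not given in the labels or notes. Symbols and coordinates came from GENCODE M21 (GRCm38), which held 46091 of the 46603 IDs. The 512 others held 0.051% of the counts.

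All 15 libraries were fitted together with edgeR 4.0.16 in R 4.3.3 (TMM scaling, filterByExpr, 1 mean per group, robust quasi-likelihood F test), with Benjamini-Hochberg adjustment over the 15296 tested genes of each comparison and a threshold of 0.05. The script was tested on simulated data. DESeq2 1.42.0, other scalings and filters, only the groups compared, a replicate block, leaving out each library, and, added after seeing the data, a per-library spline on exon length were the alternatives. Where a group had 0 counts a fold was bounded at a floor of 3 counts over the group, and at 1 to 3 counts a ratio with its exact 95% interval is given. Intervals and floors cover counting error only, and those of the interaction leave out the counting error of the WT groups.

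Same-numbered replicates were not treated as pairs. Values in every library are given for the 2 members of highest mean CPM in each role, the 3 largest changes each way in each comparison, and members against the direction of most. The members and gene lists were chosen with earlier results of these data known.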

Additional observations from a re-analysis of the deposited data

Results flagged for a closer look

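The change between the days differed between the genotypes by the interaction test of genotype and day (edgeR, adjusted p under 0.05) for 39 members upwards and 5 downwards in KO relative to WT, against 30.7% and 34.0% of all tested genes. Without the first WT or the first KO library of day 14, 3 were downwards. For Rsad2 the KO change was 13940 times the WT change by the ratio of counts (95% counting interval 3858 to 115200), with 2 counts in KO at day 4. For Mx1 and Cmpk2, which had no count in KO at day 4, the ratio was at least 381.9 and at least 316.4. All 3 ratios take the WT change as exact, and lower bounds cannot be ranked against the Rsad2 ratio. Ifitm1 went the other way with a ratio of 0.0597, as did Parp12 with a log2 value of -0.55 and Pml with -0.46. The Pml call was lost without the third WT library of day 4, the first WT library of day 14 or the first KO library of day 14.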

How the results depend on the processing

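Of 7721 values of the members' log2 differences under other settings, 7577 kept their direction and their side of the threshold, 68 no longer passed, 23 newly passed and 53 had the other sign. The counts of members higher and lower stayed within 1.5 times the reported ones, except that 1 member was lower over time in KO with only the groups compared (2 reported), and that leaving out 1 library gave 3 to 6 members lower in the interaction (5 reported). The cause was not tested. Scaling by total counts moved the median log2 of all genes to 0.17 in KO against WT at day 4, 0.28 in WT over time, -0.12 in HET against WT and -0.27 in the interaction. Values with the other sign, all log2, were small.

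In KO against WT at day 14 Ifitm3 was 0.0097 with DESeq2's size factors, 0.0103 with DESeq2, 0.0425 with no filter and 0.0696 with the length correction, and ran from -0.0710 to 0.0788 when 1 library was left out. Ifitm2 was -0.0185 and Ube2l6 -0.0053 with total counts, and they ran from -0.0142 to 0.0794 and from -0.0249 to 0.1275 with 1 library left out. Pml was 0.0091 with no filter and ran from -0.0914 to 0.0443, Isg15 from -0.0583 to 0.1828, and Zbp1 was 0.0356 with the length correction. At day 4 Samd9l ran from -0.0086 to 0.0768. In HET against WT Helz2 was 0.0096 with no filter and 0.0011 with only the groups compared, and ran from -0.1363 to 0.2047.

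In KO against HET Eif2ak2 was 0.0458 with total counts, 0.00058 with DESeq2 and 0.0201 with no filter, and ran from -0.0722 to 0.0427. Adar was -0.0091 with the length correction and ran from -0.1306 to 0.2037. Over time in WT, total counts gave 0.1253 for Mx1, 0.1401 for Ifitm2 (adjusted p = 0.0382 in edgeR) and 0.0755 for Ifitm3, the length correction gave -0.1089 for Oasl1, 0.0907 for Helz2 and 0.0220 for Adar, and Mx1 ran from -0.4058 to 0.3101. In the interaction Eif2ak2 was 0.0212 with no filter and ran from -0.0523 to 0.0026, and Ifitm2 was 0.0084 with the length correction.

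Over 30 pairs of same-numbered libraries the correlation of deviations from group means ran from -0.303 to 0.359, and 2 were over 0.1. The deviations that follow gene length enter these correlations. The labels do not say what a replicate number shares, so these values cannot decide whether libraries were paired. With the replicate number as a block 334 of 336 values kept direction and side, Phf11d in KO against WT at day 4 no longer passed, and Eif2ak2 in KO against HET was 0.0013. Depth limits members under 1 CPM, which in KO at day 4 were 22 of 48.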
